A study of Mus musculus with 8 samples.

Results

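The 10 genes described here are the bone morphogenetic protein (BMP) ligand gene Bmp4, the receptor genes Bmpr1a and Bmpr2, the antagonist gene Grem1 (gremlin), the decoy receptor gene Bambi, the SMAD genes Smad6 and Smad9, and the inhibitor of DNA binding genes Id1, Id2 and Id3. They were chosen by name as members of 1 pathway, with earlier results of these data known. Shares and medians among them, set beside all genes, are thus descriptive only. All 10 were found among the 54532 genes of the deposited tables, each as a single entry. Mouse C57BL/6 cardiac fibroblasts at passage 2, grown in culture, received in 4 libraries a plasmid that carries HA-tagged murine Thbs4, the gene of thrombospondin-4 (TSP-4, a secreted matrix-associated glycoprotein), under a CMV promoter, or an empty plasmid in another 4. After transfection the cells of both groups stood in standard medium for 12 h, then lacked serum for 24 h, and poly(A) RNA was sequenced. The names of the plasmids (pAAV.CMV.SV40.THBS4-HA.SV40(polyA) and pAAV-CA) belong to different constructs, so a difference between groups is one between constructs. The labels give no share of transfected cells, and name no animal or culture for a library, so p-values here measure the spread between these libraries, which may be technical.

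BMP ligands bind a complex of type I and type II receptor kinases, which phosphorylates the receptor-activated SMADs. These enter the nucleus with SMAD4 and switch on target genes, among them the ID genes and the inhibitory SMAD gene Smad6. Secreted antagonists such as gremlin bind the ligand outside the cell, and ID proteins bind E proteins, a class of helix-loop-helix transcription factors, and keep them from DNA. In the heart, the pathway is known for its part in development and for its crosstalk with TGF-beta in fibroblasts.

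Library totals ranged from 17123735 to 22530947 counts. Thbs4 reached 1783 ± 288 CPM (counts scaled to library size with TMM factors) in TSP-4 plasmid libraries and 0.327 ± 0.254 CPM in empty plasmid libraries (SD, n = 4 each). Each group has libraries lettered A to D, and the labels do not say what a letter marks. All 9 fibroblast markers examined were detected, with summed levels of 13355 to 18091 CPM in TSP-4 plasmid libraries and 13031 to 18649 CPM in empty plasmid libraries. All 9 macrophage markers (296 to 1670 CPM with the TSP-4 plasmid, against 327 to 1349 CPM with the empty plasmid), all 8 endothelial markers (47.7 to 69.8 CPM with the TSP-4 plasmid, against 49.1 to 83.6 CPM with the empty plasmid) and all 6 epicardial markers (538 to 974 CPM with the TSP-4 plasmid, against 495 to 992 CPM with the empty plasmid) were also above 1 CPM on average, with overlapping ranges between the groups. Pericyte markers had 5 of 7 above that level (273 to 373 CPM with the TSP-4 plasmid, against 274 to 376 CPM with the empty plasmid). All these ranges are levels summed over a list. Kcnj8 and Abcc9, which define pericytes, were near 0. Of the cardiomyocyte markers 1 of 6 (Tnnt2) was above 1 CPM (list sum 12.6 to 17.5 CPM with the TSP-4 plasmid, against 12.1 to 16.3 CPM with the empty plasmid), and of the Schwann cell markers 1 of 4 (S100b; list sum 4.67 to 7.47 CPM with the TSP-4 plasmid, against 3.57 to 7.19 CPM with the empty plasmid).

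Per unit of gene length Id3, Smad6 and Id1 led the group, and the antagonist and the decoy were lowest. In deposited FPKM (fragments scaled to gene length and library size), averaged over the 8 libraries, Id3 stood at 141 ± 23.5, Smad6 at 49.0 ± 10.4, Id1 at 39.5 ± 4.48 and Bmp4 at 25.4 ± 7.79 (SD, n = 8). Id2 followed at 15.5 ± 2.47, Bmpr1a at 13.7 ± 1.31, Bmpr2 at 9.01 ± 0.618, Smad9 at 1.49 ± 0.379, Bambi at 0.858 ± 0.173 and Grem1 at 0.733 ± 0.365. Id3 was above Smad6 in 8 of 8 libraries, by 1.85 to 4.40 times, and their ranges did not overlap. Ranges also did not overlap between Bmpr1a and Bmpr2 or between Bmpr2 and Smad9. The ranges of Smad6 and Id1, of Id1 and Bmp4, of Bmp4 and Id2, and of Smad9 and Bambi overlapped, though within a library the order held in 8 of 8. Id2 exceeded Bmpr1a in 6 of 8 libraries, those of letters B, C and D. Bambi exceeded Grem1 in 4 of 8, those of letters A and B. The ranges of these neighbours overlapped, and their order followed the letter in both plasmid groups.

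**Figure D1:**
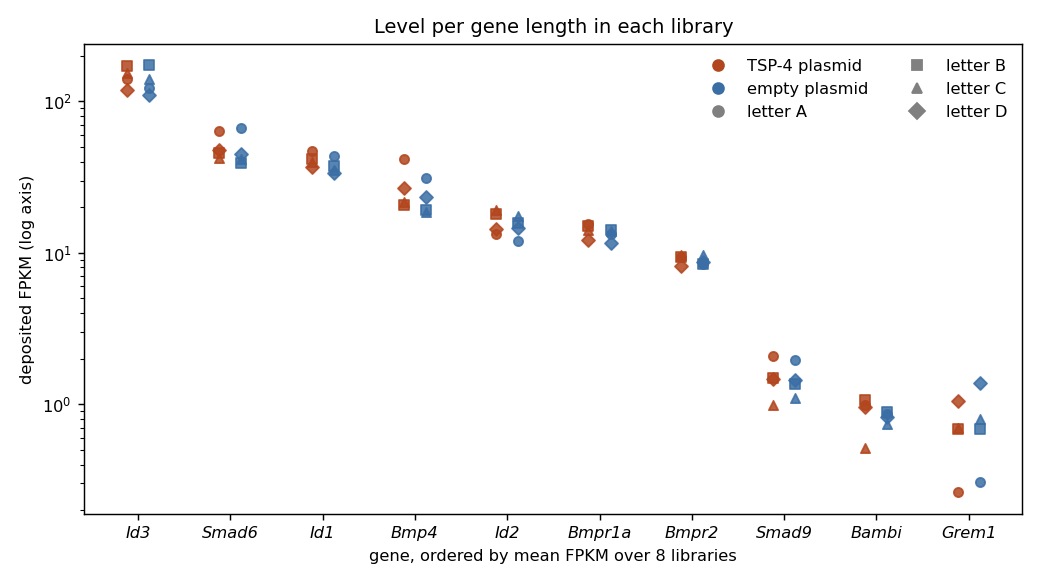
Deposited FPKM on a log axis for the 10 genes in each of the 8 libraries, ordered by mean level; colour gives the plasmid and marker shape the letter. Id3 lies between 109 and 173 FPKM, and Grem1, between 0.262 and 1.38 FPKM, has the widest relative range.

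Among the genes with a RefSeq promoter sequence, Grem1, Smad9, Bmp4 and Smad6 differed most widely between letters, and their promoters are shown. Bmp4, Smad6 and Smad9, which were highest in letter A, can thus be set beside Grem1, which was lowest there. Id2 was also lowest in letter A, with a narrower range, and its promoter is not shown. Each sequence is from RefSeq (GRCm38.p6), runs 5′ to 3′ on the gene's strand, and covers 250 bases before to 50 bases after the annotated start. Capitals mark GGCGCC, a GC-rich element that BMP-activated SMADs are known to bind, and GTCT on either strand, the SMAD box. The windows are chr14:46390620-46390919 (minus strand) for Bmp4, chr9:64022010-64022309 (minus) for Smad6, chr3:54755332-54755631 (plus) for Smad9 and chr2:113758599-113758898 (minus) for Grem1.
Bmp4: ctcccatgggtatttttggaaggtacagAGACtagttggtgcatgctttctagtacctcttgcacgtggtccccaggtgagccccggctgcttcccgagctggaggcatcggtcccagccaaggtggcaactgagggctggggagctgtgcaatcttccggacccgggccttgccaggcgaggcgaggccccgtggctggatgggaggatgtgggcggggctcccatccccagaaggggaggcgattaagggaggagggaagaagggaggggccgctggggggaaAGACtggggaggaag
Smad6: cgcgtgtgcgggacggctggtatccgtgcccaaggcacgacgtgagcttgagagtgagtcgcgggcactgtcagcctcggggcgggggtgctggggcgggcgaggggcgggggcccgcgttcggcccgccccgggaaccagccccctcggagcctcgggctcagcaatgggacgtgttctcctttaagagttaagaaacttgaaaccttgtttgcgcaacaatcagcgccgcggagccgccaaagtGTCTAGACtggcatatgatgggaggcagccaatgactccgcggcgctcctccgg
Smad9: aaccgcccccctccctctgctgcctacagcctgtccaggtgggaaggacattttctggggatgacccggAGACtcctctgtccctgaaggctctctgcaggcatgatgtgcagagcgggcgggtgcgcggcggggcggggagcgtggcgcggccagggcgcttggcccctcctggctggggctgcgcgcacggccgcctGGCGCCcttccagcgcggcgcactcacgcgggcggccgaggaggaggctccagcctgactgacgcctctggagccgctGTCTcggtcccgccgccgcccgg
Grem1: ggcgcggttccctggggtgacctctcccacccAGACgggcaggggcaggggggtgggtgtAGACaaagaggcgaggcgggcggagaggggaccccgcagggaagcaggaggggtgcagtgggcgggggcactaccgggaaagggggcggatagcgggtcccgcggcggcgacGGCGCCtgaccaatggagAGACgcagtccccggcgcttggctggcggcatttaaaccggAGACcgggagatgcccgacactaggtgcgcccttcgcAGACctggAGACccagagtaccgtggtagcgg

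RefSeq promoters were matched for 8 of the 10 genes, the others being Id1 and Bambi. GGCGCC, searched on both strands, was in 5 of these 8 (Bmpr1a, Bmpr2, Grem1, Smad9 and Id2) and in 11.9% of 32851 promoters of the same length. The 8 windows were 59.3% (Bmpr2) to 79.3% (Bmpr1a) G or C. All promoters were not matched to them for this share, so the 2 frequencies of this GC-only motif cannot be read as an enrichment. GTCT was in 7 of 8, against 88.0% of all promoters, with 6 matches in Grem1. The match of GGCGCC overlapped no match of GTCT. The E-box CANNTG, which E proteins bind, was in 4 of 8 (Bmp4, Smad6, Smad9 and Id2), against 72.3% of all promoters. In Smad6 a GTCT match on each strand adjoins the other to form the palindrome GTCTAGAC across the annotated start. It was in 1 of 8, against 0.213% of all promoters, and was singled out after the matches were seen. A match describes the letters only. GGCGCC was both in Smad9, which was highest in letter A, and in Grem1 and Id2, which were lowest there.

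The comparison of plasmids asked whether any of these genes differs in fibroblasts that overexpress TSP-4. None of the 10 passed the threshold (edgeR's quasi-likelihood test with Benjamini-Hochberg adjustment over 14723 genes, threshold 0.05), and each had an adjusted p of 0.999968. Over all genes tested, 0.00679% were called higher and 0% lower, so a count of 0 among 10 is near the background. The only gene called was Thbs4 itself (adjusted p = 1.93e-06 in edgeR's test). At an unadjusted p under 0.05, edgeR listed 0 of the 10 and 1.6% of all genes, DESeq2 listed 0 of the 10 and 0.965% of all genes, and limma voom 0 of the 10 and 1.81% of all genes. The fitted log2 fold change (TSP-4 plasmid over empty plasmid) was above 0 for 9 of the 10, against 7354 of the 14723 genes tested. The median over the 10 was 0.09, against -0.00014 over all genes tested. With only the plasmid in the fit, edgeR's 95% interval lay within 2-fold for 9 of the 10, the exception being Grem1. Over all 14723 genes tested it did so for 13034, so the count among the 10 is near the background. No gene of the 10 had groups that did not overlap, against 1.51% of all genes. Same-lettered libraries deviated together, and with letters as a replicate block 0 of the 10 passed as well, against 0.0136% of all genes, with a smallest adjusted p of 0.339 in edgeR's test.

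**Figure D2:**
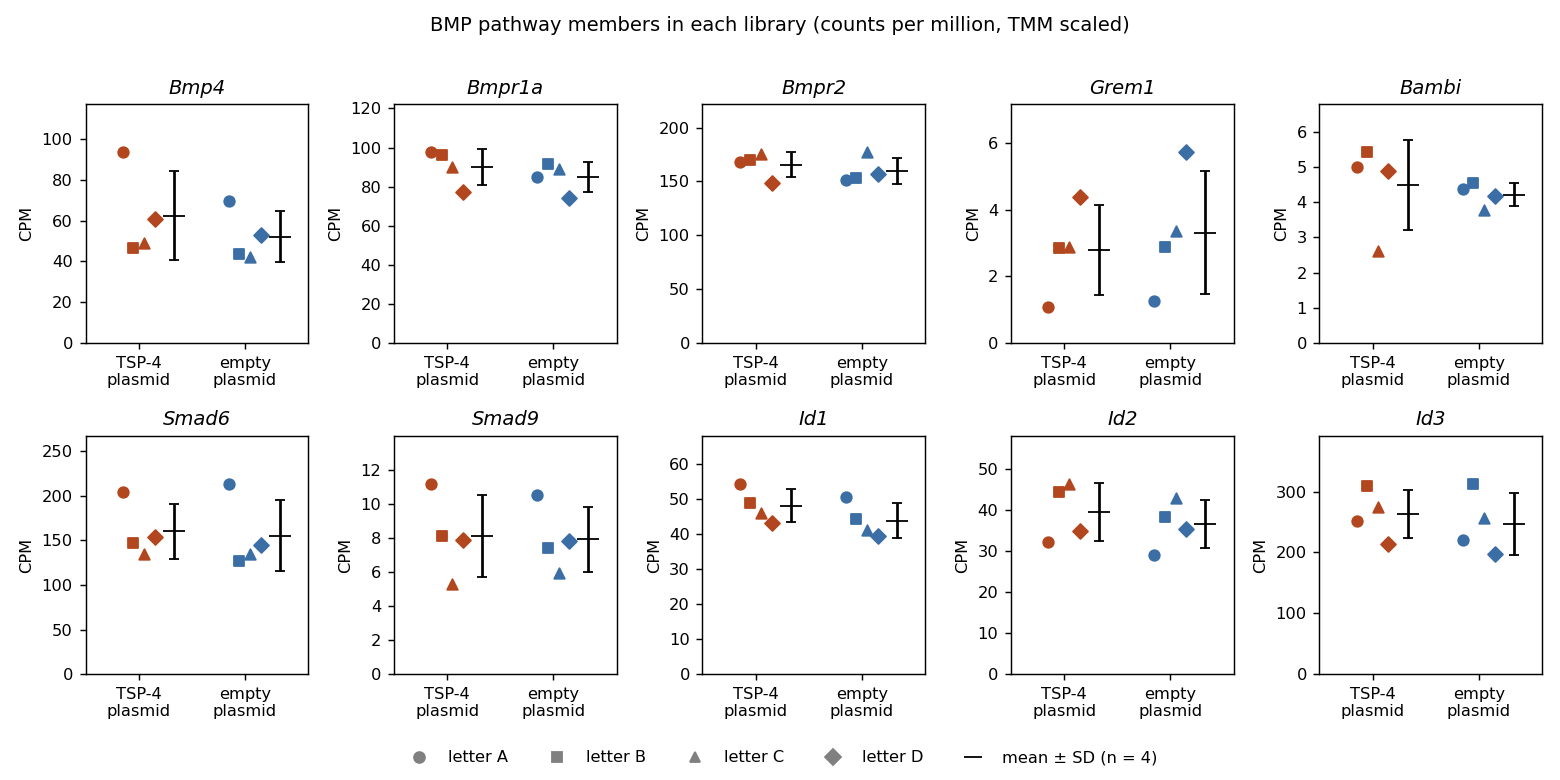
CPM of each gene in each library, TSP-4 plasmid left and empty plasmid right, marker shape giving the letter, with mean ± SD (n = 4). The groups overlap for all 10 genes, and in Bmp4, Smad6 and Smad9 letter A is the highest library of both groups.

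Bmp4, the ligand, is on chromosome 14 (46383520 to 46390669, minus strand, GRCm38). It stood at 93.6, 46.5, 49.0 and 60.8 CPM in TSP-4 plasmid libraries A to D, against 69.6, 43.7, 42.3 and 52.9 CPM in empty plasmid libraries A to D. Within every letter the TSP-4 plasmid library was the higher, and letter A was highest in both groups, while the groups overlapped. Its fitted log2 fold change was 0.26 (SE 0.26, 95% interval -0.33 to 0.86), the largest of the 10 in size, with an unadjusted p of 0.337. It was -0.0015 without TSP-4 plasmid library A, a fit that kept empty plasmid library A. With the replicate block it was 0.24 (95% interval 0.12 to 0.36), with an unadjusted p of 0.000696 and an adjusted p of 0.339 in edgeR's test. With the block and both letter A libraries left out it was 0.17 (unadjusted p 0.00683, adjusted p 0.738 in edgeR's test). It was 0.25 to 0.29 with the libraries of letter B, C or D left out instead.

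Bmpr1a, a type I receptor kinase, is on chromosome 14 (34410734 to 34503341, minus strand) and Bmpr2, a type II receptor kinase, on chromosome 1 (59763400 to 59879014, plus strand). Bmpr1a stood at 97.6, 96.0, 89.9 and 77.1 CPM in TSP-4 plasmid libraries A to D, against 85.0, 91.3, 88.9 and 74.2 CPM in empty plasmid libraries A to D. It was higher with the TSP-4 plasmid in 4 of 4 letters, by at most 0.20 on the log2 scale, and letter D was lowest in both groups. The log2 fold change was 0.09 (95% interval -0.11 to 0.29), and with 1 library left out it ranged from 0.03 (without empty plasmid library D) to 0.16 (without TSP-4 plasmid library D). Bmpr2 stood at 168, 170, 175 and 149 CPM in TSP-4 plasmid libraries A to D, against 152, 153, 177 and 157 CPM in empty plasmid libraries A to D. Its TSP-4 plasmid libraries were higher in letters A and B and lower in C and D, and its log2 fold change of 0.05 had the narrowest interval of the 10 (-0.11 to 0.21). A 1.16-fold increase is the upper end of that interval. With 1 library left out the value ranged from 0.03 (without empty plasmid library A) to 0.11 (without empty plasmid library C).

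Grem1, which encodes the secreted antagonist gremlin, is on chromosome 2 (113746164 to 113758646, minus strand). It was the scarcest of the 10 per length, with 24, 50, 49 and 78 counts in TSP-4 plasmid libraries A to D, against 27, 49, 66 and 110 counts in empty plasmid libraries A to D. These are 1.08, 2.85, 2.90 and 4.38 CPM with the TSP-4 plasmid, against 1.27, 2.89, 3.36 and 5.74 CPM with the empty plasmid. In 4 of 4 letters the TSP-4 plasmid library was the lower, by 0.02 (log2) in letter B and 0.38 in letter D, while letter A was lowest and letter D highest in both groups. Its fitted log2 fold change was -0.25 (SE 0.50, 95% interval -1.39 to 0.90) with only the plasmid in the fit. This interval holds a 2-fold decrease. The same fit gave 0.03 without TSP-4 plasmid library A and 0.16 without empty plasmid library D. With the replicate block the log2 fold change was -0.23 (95% interval -0.58 to 0.13), an interval that does not hold a 2-fold decrease. The block fit gave more false calls on simulated counts than its threshold allows.

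Bambi, a membrane protein that resembles a receptor but lacks the kinase domain, is on chromosome 18 (3507957 to 3516404, plus strand). It stood at 5.01, 5.42, 2.60 and 4.89 CPM in TSP-4 plasmid libraries A to D, against 4.37, 4.54, 3.77 and 4.17 CPM in empty plasmid libraries A to D. The TSP-4 plasmid library was the higher in letters A, B and D and the lower in letter C, where it had 44 counts. The log2 fold change was 0.09 (95% interval -0.40 to 0.58).

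Smad6, an inhibitory SMAD that is itself a BMP target, is on chromosome 9 (63953076 to 64022059, minus strand). It stood at 204, 147, 135 and 154 CPM in TSP-4 plasmid libraries A to D, against 213, 127, 135 and 145 CPM in empty plasmid libraries A to D. Letter A was far above the others in both groups, and the log2 fold change between plasmids was 0.04 (95% interval -0.39 to 0.48). Smad9, a receptor-activated SMAD, is on chromosome 3 (54755582 to 54801257, plus strand). It stood at 11.2, 8.10, 5.32 and 7.87 CPM in TSP-4 plasmid libraries A to D, against 10.5, 7.43, 5.96 and 7.82 CPM in empty plasmid libraries A to D. Letter A was highest and letter C lowest in both groups, with a log2 fold change of 0.04 (95% interval -0.50 to 0.58). Both reversed without TSP-4 plasmid library A, to -0.09 for Smad6 and -0.16 for Smad9.

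The ID genes are on chromosome 2 (Id1, 152736251 to 152737410, plus strand), chromosome 12 (Id2, 25093799 to 25097140, minus strand) and chromosome 4 (Id3, 136143497 to 136145755, plus strand). Id1 stood at 54.4, 48.9, 45.9 and 43.3 CPM in TSP-4 plasmid libraries A to D, against 50.7, 44.2, 41.2 and 39.4 CPM in empty plasmid libraries A to D. It was higher with the TSP-4 plasmid in 4 of 4 letters, by 0.10 to 0.16 on the log2 scale, the most even within-letter difference of the 10. Its fitted log2 fold change was 0.13 (SE 0.10, 95% interval -0.08 to 0.35), and 0.13 with the replicate block (95% interval 0.03 to 0.24, unadjusted p 0.0137, adjusted p 0.478 in edgeR's test). With 1 library left out it ranged from 0.07 (without TSP-4 plasmid library A) to 0.21 (without empty plasmid library A). Id2 stood at 32.4, 44.5, 46.5 and 35.0 CPM in TSP-4 plasmid libraries A to D, against 29.2, 38.5, 43.1 and 35.6 CPM in empty plasmid libraries A to D. Its log2 fold change was 0.11 (95% interval -0.23 to 0.45), and letters B and C were above A and D in both groups. With 1 library left out it ranged from 0.02 (without empty plasmid library A) to 0.20 (without empty plasmid library C). Id3 stood at 252, 309, 275 and 214 CPM in TSP-4 plasmid libraries A to D, against 220, 313, 256 and 197 CPM in empty plasmid libraries A to D. Its log2 fold change was 0.09 (95% interval -0.27 to 0.45), with letter B highest and letter D lowest in both groups. With the replicate block it was 0.10 (95% interval 0.01 to 0.19, unadjusted p 0.0270, adjusted p 0.554 in edgeR's test).

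With the replicate block, Bmp4, Id1 and Id3 had an interval above 0, which is 3 of the 10. The intervals of Bmpr1a (-0.0052 to 0.18), Bmpr2 (-0.04 to 0.15), Grem1 (-0.58 to 0.13) and Bambi (-0.27 to 0.40) held 0. Those of Smad6 (-0.04 to 0.15), Smad9 (-0.19 to 0.24) and Id2 (-0.0064 to 0.23) did so too. On simulated counts 9.28% of the calls of the block fit were false, at an adjusted p under 0.05. At an unadjusted p under 0.05 that fit listed 8.12% of all genes. DESeq2 with the block listed 1 of the 10 (Bmp4), against 2.97% of all genes. Of the 10, 4 lay in the same direction in 4 of 4 letters (Bmp4, Bmpr1a and Id1 higher, Grem1 lower), against 16.1% of all genes tested. For the 3 that were higher the share among all genes was 8.03%. With the summed macrophage level added to the block, 3 of the 10 had an unadjusted p under 0.05, against 7.78% of all genes, and the smallest adjusted p was 0.462 in edgeR's test.

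**Figure D3:**
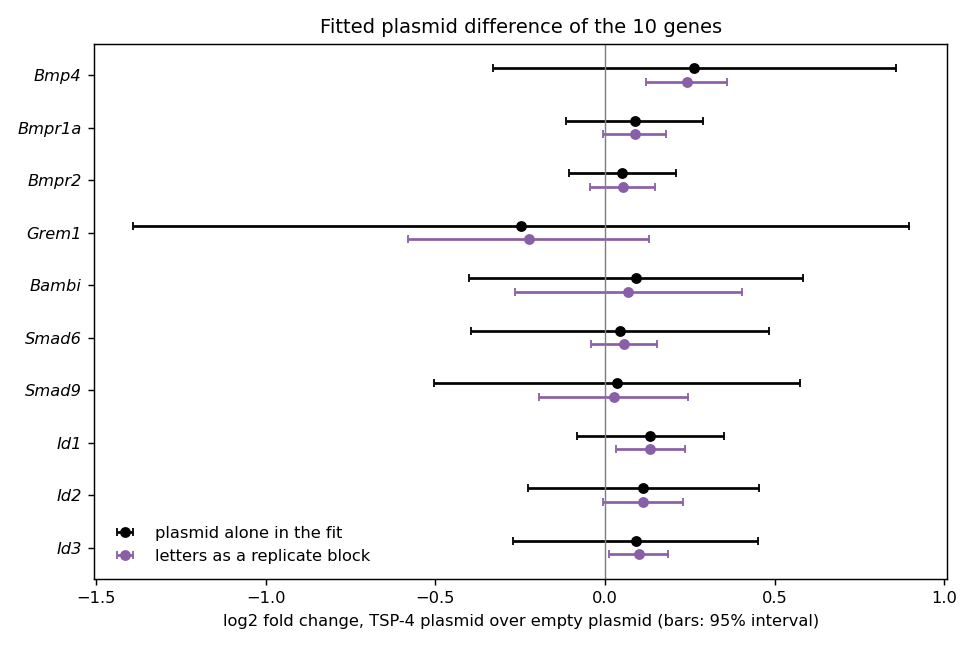
Log2 fold change (TSP-4 plasmid over empty plasmid) with 95% intervals from edgeR for the 10 genes, with the plasmid alone in the fit (black) and with letters as a replicate block (purple). All black intervals hold 0, and the purple ones lie above 0 for Bmp4, Id1 and Id3.

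Differences between letters were examined over both plasmids. In a fit with plasmid and letter, 8 of the 10 genes differed between letters (edgeR's quasi-likelihood F test of the letter term, adjusted p under 0.05). Over all genes tested this was 28.1%, and over genes with a mean of at least 10 CPM 33.4%, against 6 of the 7 members at that level. These shares only describe, as the members were chosen with earlier results of these data known. Bmpr2 (adjusted p = 0.0991 in edgeR's test) and Bambi (0.162) did not pass. The letter fit gave more false calls on simulated counts than its threshold allows: over 3 simulations, 125 of its 649 calls (19.3%) were false. DESeq2's likelihood ratio test called 8 of the 10 as well, and 2695 of all 14723 genes, fewer than the 4134 of edgeR. Bmpr1a was not called without TSP-4 plasmid library D (adjusted p = 0.119 in edgeR's test) or without empty plasmid library D (0.0593). In bulk RNA, fewer cells of a type and less RNA per cell cannot be told apart.

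Grem1 had the widest range, with letter means 2.00 apart on the log2 scale (4.01-fold; edgeR adjusted p = 0.000156), and was the only member past 1, against 9.92% of all genes. In letters A to D, averaged over both plasmids, it stood at 1.18, 2.87, 3.13 and 5.06 CPM. Bmp4 stood at 81.6, 45.1, 45.6 and 56.8 CPM in letters A to D, a range of 0.84 (log2). Letter A thus had the most Bmp4 and the least Grem1 transcript. The ratio of Bmp4 to Grem1 in FPKM was 159, 30.1, 31.2 and 25.6 in TSP-4 plasmid libraries A to D, against 101, 27.9, 23.2 and 17.0 in empty plasmid libraries A to D.

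Smad6 and Smad9 were likewise highest in letter A. Smad6 stood at 209, 137, 135 and 149 CPM in letters A to D (range 0.63 on the log2 scale) and Smad9 at 10.9, 7.76, 5.64 and 7.84 CPM (range 0.93). Id1 was also highest in A, at 52.5, 46.6, 43.6 and 41.3 CPM (range 0.35). Id2 and Id3 had other orders. Id2 was lowest in A, at 30.8, 41.5, 44.8 and 35.3 CPM in letters A to D (range 0.54), and Id3 was highest in B, at 236, 311, 266 and 206 CPM (range 0.60). The FPKM ratio of Id1 to Id2 was 3.54 in TSP-4 plasmid library A and 2.08 to 2.60 in TSP-4 plasmid libraries B to D, against 3.65 in empty plasmid library A and 2.01 to 2.41 in empty plasmid libraries B to D.

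Some markers of other cell types also differed between letters. Macrophage markers summed to 311, 868, 1509 and 676 CPM in letters A to D, with 8 of 9 called by the letter term. Epicardial markers summed to 983, 517, 595 and 859 CPM (5 of 6 called), fibroblast markers to 16931, 18370, 15519 and 13193 CPM (7 of 9) and endothelial markers to 72.4, 48.4, 72.2 and 63.6 CPM (4 of 8). Pericyte markers summed to 329, 375, 315 and 274 CPM, with 1 of the 5 tested called. Of the cardiomyocyte list 1 of 1 tested was called and of the Schwann cell list 1 of 2 tested. Bmp4, Smad6 and the epicardial markers thus had letters A and D above B and C, as had Smad9, though its D and B were close. The macrophage markers were lowest in letter A. The part of these cell types in the letter differences was not tested.

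**Figure D4:**
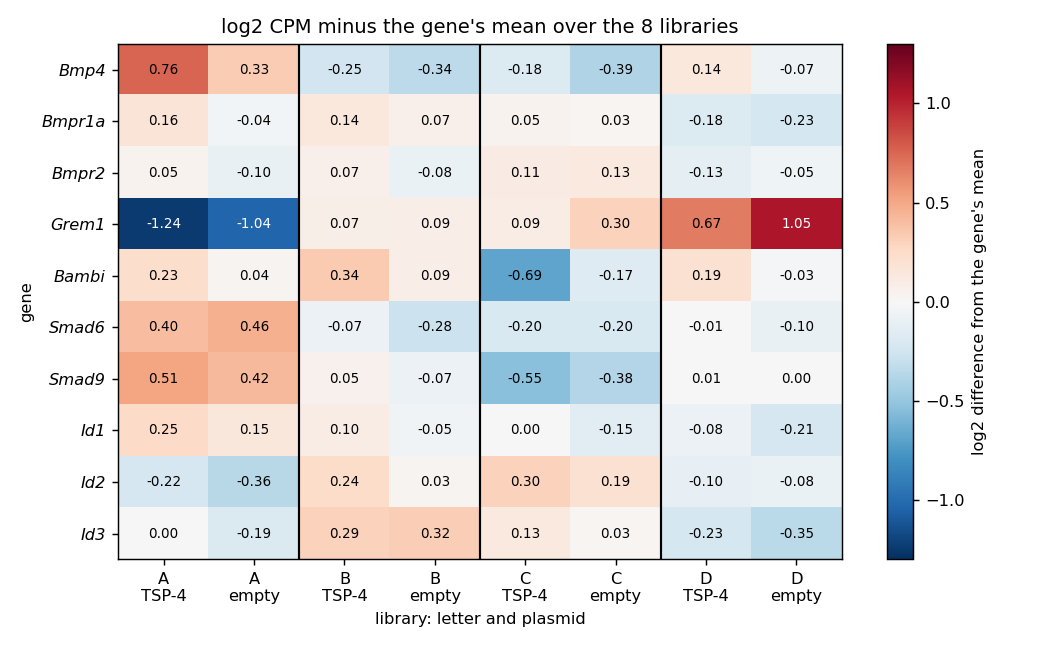
Log2 CPM of each gene minus its mean over the 8 libraries, by letter and, within a letter, TSP-4 plasmid left of empty plasmid. Columns of the same letter resemble each other: Grem1 is lowest in both A libraries (-1.24 and -1.04), where Bmp4, Smad6, Smad9 and Id1 are above their means.

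The median range of the 4 letter means was 0.61 (log2) over the 10 genes, 0.40 over the 34 other BMP pathway genes tested, and 0.30 over all genes tested.

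**Figure D5:**
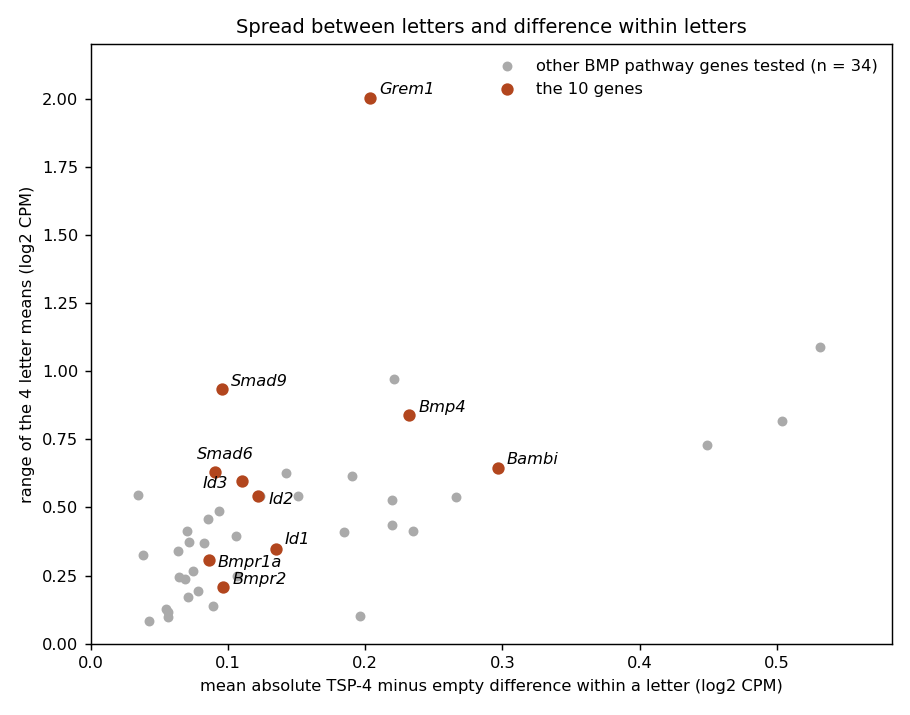
Range of the 4 letter means (log2 CPM) against the mean absolute TSP-4 minus empty difference within a letter for the 10 genes (named) and the 34 other BMP pathway genes tested (grey). A range of 4 means and a mean of absolute differences are different measures, so their sizes are not compared with each other; among the 10 genes the range is 0.21 for Bmpr2 and 2.00 for Grem1.

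By the smallest root mean square difference of centred log2 CPM over the 8 libraries, among 9324 genes with a mean of at least 10 CPM, the genes nearest to Grem1 were Rgs16 (0.33), which encodes a regulator of G protein signalling, Chst11 (0.33), a chondroitin sulfotransferase, and Cd40 (0.35), a TNF receptor family member. Each was lowest in letter A, which follows from choosing them by likeness to Grem1 over the same libraries.

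Among 50 other BMP pathway genes, chosen by role, 34 passed the expression filter and 0 were called between plasmids in either direction. At an unadjusted p under 0.05 edgeR listed 0 of the 34 without the block (1.6% of all genes) and 9 with it (8.12% of all genes). Of the 34, 19 lay above 0 and 15 below, and of all 14723 genes tested 7354 lay above 0. The median fold change of the 34 was 0.02 on the log2 scale. Of the other BMP ligands 4 of 13 were tested. Gdf6, a BMP family ligand, was the most abundant at 241 FPKM in TSP-4 plasmid libraries and 225 FPKM in empty plasmid libraries, well above Bmp4 per length (855 ± 121 CPM with the TSP-4 plasmid against 801 ± 108 CPM with the empty plasmid, log2 fold change 0.09, SD, n = 4 each). Bmp6 averaged 105 ± 16.1 CPM with the TSP-4 plasmid against 100.2 ± 13.7 CPM with the empty plasmid. Bmp8a, whose reads may be shared with its close copy Bmp8b, averaged 1.56 ± 0.806 CPM with the TSP-4 plasmid against 1.62 ± 0.531 CPM with the empty plasmid.

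Of the receptors and co-receptors 8 of 9 were tested, 7 of them above 0. Endoglin (Eng), a co-receptor, stood at 809 ± 28.8 CPM in TSP-4 plasmid libraries against 785 ± 31.2 CPM in empty plasmid libraries (log2 fold change 0.04, 95% interval -0.08 to 0.16; SD, n = 4 each). The type I receptor Acvrl1 averaged 296 ± 44.2 CPM with the TSP-4 plasmid against 279 ± 44.0 CPM with the empty plasmid, and Acvr1, another type I receptor, averaged 47.7 ± 0.910 CPM with the TSP-4 plasmid against 46.6 ± 1.97 CPM with the empty plasmid. Of the antagonists and ligand binders 9 of 13 were tested and 6 lay above 0. Fstl1, a secreted follistatin-like protein, averaged 1598 ± 174 CPM with the TSP-4 plasmid against 1536 ± 178 CPM with the empty plasmid. Twsg1 (twisted gastrulation), which binds BMPs together with chordin, averaged 218 ± 27.0 CPM with the TSP-4 plasmid against 202 ± 21.0 CPM with the empty plasmid. Nbl1, of the same family of antagonists as gremlin, averaged 75.3 ± 8.22 CPM with the TSP-4 plasmid against 78.0 ± 8.27 CPM with the empty plasmid.

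All 6 intracellular mediators and inhibitors were tested and 0 lay above 0, with log2 fold changes from -0.20 to -0.0029. Smurf2, a ubiquitin ligase that acts on SMADs and receptors, stood at 388 ± 85.4 CPM in TSP-4 plasmid libraries against 447 ± 56.8 CPM in empty plasmid libraries (log2 fold change -0.20, 95% interval -0.56 to 0.15; SD, n = 4 each). Smurf1, a related ligase, averaged 198 ± 22.0 CPM with the TSP-4 plasmid against 205 ± 15.0 CPM with the empty plasmid, and Smad7, an inhibitory SMAD of both BMP and TGF-beta pathways, averaged 170 ± 14.9 CPM with the TSP-4 plasmid against 173 ± 17.96 CPM with the empty plasmid. Of the targets and ID partners 7 of 9 were tested and 4 lay above 0. Atoh8, a helix-loop-helix factor induced by BMP, averaged 98.5 ± 18.6 CPM with the TSP-4 plasmid against 89.4 ± 18.02 CPM with the empty plasmid. Tcf3, an E protein gene, averaged 60.2 ± 4.20 CPM with the TSP-4 plasmid against 63.4 ± 1.81 CPM with the empty plasmid. Tcf12, another E protein gene, averaged 135 ± 8.22 CPM with the TSP-4 plasmid against 133 ± 2.39 CPM with the empty plasmid. The letter term called 18 of the 34 pathway genes, against 28.1% of all genes, among them 8 of the 9 antagonists and binders and 2 of the 8 receptors.

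The strand setting of the counting is not given in the sources used here, so reads of overlapping genes may be mixed. In the annotation (GENCODE M21, GRCm38) exons of Bmp4 share 89 bp with Gm15217 on the opposite strand, which had 0 to 6 counts per library. Exons of Bmpr1a share 290 bp with the antisense gene Gm17110, which had 5 to 23 counts per library, against at least 1372 for Bmpr1a. The other 8 genes share no exonic bases with another gene there.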

How the data were processed

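Read counts per gene, whole and not normalized, were taken unchanged from the table the authors deposited. FPKM were used as deposited by the authors, and each value checked (genes with at least 100 counts in all) equals count over gene length times 1 constant per library, within 0.1%. Per the submitters' processing notes, the tools were HTSeq 0.6.1, Cufflinks 2.1.1, TopHat2 2.0 and CASAVA, and the builds GRCm38.p6 and mm10. Their roles are not given. Depth was 17123735 to 22530947 counts per library.

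The test was edgeR 4.0.16 (quasi-likelihood, robust, R 4.3.3) on counts, with TMM factors and edgeR's expression filter (minimum count 10), only the plasmid in the model, and p-values adjusted (Benjamini-Hochberg) over 14723 genes at 0.05. The letter term was tested in a fit with plasmid and letter. DESeq2 1.42.0, limma 3.58.1, other filters and scalings, the replicate block and left-out libraries were alternatives. The 3 edgeR fits (plasmid, replicate block, letter) were tested on simulated data, where the block and letter fits gave more false calls than nominal.

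Across genes, the deviations of a letter's pair of libraries had a Pearson's r of 0.508 to 0.651 (other letters -0.57 to 0.323), which passes the limit of 0.1 for pairing. The labels do not state this pairing. Log2 CPM used a prior count of 2. The mean chi-square per gene between libraries was at least 4.94, so none is a copy of another. The members and lists were chosen with earlier results of these data known. From the pathway list the text names any gene with an unadjusted p under 0.05 and up to 3 per role with the highest FPKM. Hjv was matched by its synonym.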

Additional observations from a re-analysis of the deposited data

How the results depend on the processing

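No member and no pathway list gene was called between plasmids under any alternative run. The number of all genes called in the main test was 1, Thbs4 itself. This number became 2 with the replicate block, 5 with DESeq2 and the block, and 5, 4 and 2 with the block and letter A, B or C left out. Of 140 member fold changes under alternatives that leave out no single library, 138 kept their direction. Smad9 reversed with the block without letter A (-0.00080) and without letter B (-0.0052). With 1 library left out, 70 of 80 kept theirs. The log2 fold change then ranged from -0.0015 to 0.43 for Bmp4, from -0.55 to 0.16 for Grem1, from -0.010 to 0.28 for Bambi, from -0.094 to 0.24 for Smad6, from -0.16 to 0.21 for Smad9 and from -0.0035 to 0.23 for Id3. It stayed above 0 for Bmpr1a, Bmpr2, Id1 and Id2, though it moved by over 1.5 times for each. The cause was not tested, though leaving out 1 library unbalances the letters. DESeq2 called 2695 genes between letters, against 4134 with edgeR. The members called between letters ranged from 7 to 8 over all alternatives. Grem1 and Bambi had 24 to 111 counts per library, the lowest minimum counts of the 10.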

Other observations

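Nog and Fst, genes of secreted antagonists, were singled out after their values were seen. Nog, which encodes the antagonist noggin, stood at 10.4 ± 2.09 CPM in TSP-4 plasmid libraries against 12.5 ± 2.21 CPM in empty plasmid libraries (SD, n = 4 each). It was higher with the TSP-4 plasmid in 0 of 4 letters (log2 fold change -0.27, unadjusted p 0.0135 and adjusted p 0.478 with the replicate block in edgeR's test). Fst, which encodes follistatin, went the other way, at 97.4 ± 32.5 CPM with the TSP-4 plasmid against 82.7 ± 25.4 CPM with the empty plasmid (log2 fold change 0.24). It was higher in 4 of 4 letters, by 0.56 (log2) in A and by 0.10 to 0.13 in B, C and D. With the replicate block its log2 fold change was 0.23 (unadjusted p 0.0277, adjusted p 0.554 in edgeR's test). Of all genes tested, 16.1% lay in the same direction in 4 of 4 letters. Neither Nog nor Fst passed the threshold, with or without the block.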
